A study of Mus musculus with 21 samples.

Results

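Axon and cell guidance genes of the mouse notochord are described here, namely the ephrins and Eph receptors, the semaphorins with their plexin and neuropilin receptors, the Slits and Robos, and the netrins with Dcc and the Unc5 receptors. Members were chosen by gene symbol alone, as every ephrin-A, ephrin-B, EphA, EphB, semaphorin, plexin, Slit, Robo and netrin named with its family number, with Nrp1, Nrp2, Dcc and Unc5a to Unc5d added. The rule found 69 of the 23983 genes of the RNA-seq table. The mean over the 9 libraries reached 1 FPKM (sequenced fragments scaled by transcript length and by library size) for 51 of them, and for 11922 of all genes. The other 18 stayed below it, namely Epha3, Epha6, Epha8, Epha10, Sema3g, Sema4a, Sema4f, Sema6b, Plxna4, Plxnb3, Robo3, Robo4, Ntn3, Ntn4, Ntn5, Dcc, Unc5a and Unc5d.

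The study compared notochord progenitors with mesoderm progenitors in the embryo and in culture. Embryos were derived from F1G4 (C57BL/6N x SV129) embryonic stem cells carrying the BAC reporters T::H2B-Venus, Noto::H2B-mCherry and Foxa2::H2B-mTurquoise, and cells were sorted at E8.5 (TS12) and E9.5 (TS16). NotoP, the notochord progenitors, were the Noto+/T+/Foxa2+ cells of the caudal ends. MP, the mesoderm progenitors, were the T+/Noto-/Foxa2- cells of the same region, and trunk notochord was the T+/Noto+/Foxa2+ population of trunk tissue. By the study's list of RNA samples, the trunk pools spanned more somite stages than the NotoP pools. Trunk notochord and E9.5 NotoP were gated on high Foxa2, and E8.5 NotoP on Foxa2+. Cultured cells came from another modified F1G4 line with TRE::Foxa2-IRES-EGFP at the Rosa26 locus and the BACs T::H2B-mCherry-T2A-irTA and Noto::H2B-mTurquoise, so that doxycycline induced Foxa2 wherever T regulatory elements were active. NMPdiff (neuromesodermal progenitors) and MPdiff were sorted as T+/Noto- cells, MPdiff after CHIR99021 for 1 further day of culture. NotoPdiff were Noto+/T+ cells after CHIR99021 and doxycycline, sorted on the same culture day as MPdiff. Foxa2 reads of NotoPdiff can include the transgene. Each condition has 1 library of pooled sorted cells. Each difference below is therefore between single libraries and has no replicate error. As each embryonic population was sampled at both stages, a limma fit of population and stage over the 6 embryonic libraries could be made, chosen after the values were seen. Its error starts from the disagreement between stages over these libraries, with 2 residual degrees of freedom. The fit then shrinks that error toward a trend over all 11922 genes, with 3.33 prior degrees of freedom. It is not a spread between replicates. The 3 cultured libraries leave no degree of freedom for a test.

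Guidance cues are secreted or membrane-bound proteins that attract or repel cells and growing axons. Slits signal through Robos, class 3 semaphorins through neuropilins paired with plexins, ephrins through Eph receptors on touching cells, and netrins through Dcc or Unc5 receptors. The notochord lies beneath the neural tube and between the somites, where such cues are known to steer axons, neural crest cells and vessels, and ephrin signalling is known to set tissue boundaries.

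Noto followed the sort, at more than low levels in the Noto+ libraries only. It was at 152 and 164 FPKM in NotoP (E8.5 and E9.5), at 27.5 and 20.8 in trunk notochord and at 22.5 in NotoPdiff, at 0.515 in NMPdiff, and listed at 0 in the MP and MPdiff libraries. The sum of the mesoderm progenitor list did not separate NotoP from MP at E8.5 (142 FPKM in NotoP and 127 in MP). It was lower in NotoP at E9.5 (97.2 against 232). The members of the list differed. Pcdh8 was at 1.27 and 0.162 FPKM in NotoP and 20.3 and 11.8 in MP. Osr1 was at 2.81 and 0 in NotoP and 34.8 and 3.18 in MP, and Msgn1 at 20.0 and 46.6 in NotoP and 27.5 and 123 in MP. Tbx6 was at 44.0 and 27.8 FPKM in NotoP and 39.3 and 67.2 in MP, and Hes7 at 74.3 and 22.7 in NotoP and 5.38 and 26.1 in MP, while both trunk libraries listed Tbx6, Msgn1 and Hes7 at 0. In culture the neuromesodermal list summed to 452 FPKM in NMPdiff and 83.4 in MPdiff, with T at 406 and 25.8. The mesoderm progenitor list summed to 69.8 and 85.4, with Tbx6, Pcdh8, Osr1 and Hes7 each lower in NMPdiff. Some markers crossed the labels, Cdx2 at 3.49 and 47.0 among them. NMPdiff had the highest level of the neuromesodermal marker Nkx1-2 (41.5 FPKM), but Sox2 was at 1.07 there against 3.49 in MPdiff and 17.3 in NotoP at E8.5, and the mesodermal Msgn1 at 52.7 against 25.1 in MPdiff. The E8.5 MP library was made from fewer cells than the other embryonic ones, listed 58.1% of all genes at 0 against 44.7% to 51.7% in those, and had the most members at 0 (25 of 69). Trunk notochord libraries were also made from fewer cells than NotoP. Trunk notochord at E9.5 held Sox10 at 26.3 FPKM and Pax1 at 13.5, and both trunk libraries held Ttr (36.0 and 23.4), all of which both NotoP libraries listed at 0. Other markers of their lists followed them in part. Tfap2a was at 4.15 FPKM in trunk notochord at E9.5 and listed at 0 in both NotoP libraries. Ets1 was at 5.96 and 6.93 in trunk notochord and 1.12 and 2.82 in NotoP. Tcf15 was at 11.8 and 0 in trunk notochord and 1.01 and 0 in NotoP. The neural crest marker Foxd3 and the somite marker Myf5 were listed at 0 in all trunk and NotoP libraries. The gut endoderm marker Sox17 was at 0 in both trunk libraries and at 3.58 FPKM in NotoP at E8.5. Blood markers summed to 0 in every embryonic library, and the 6 endothelial markers to between 0.162 and 1.67 FPKM. Gut endoderm markers, some of which are general epithelial genes, summed to 98.3 and 35.4 FPKM in NotoP, 128 and 63.8 in trunk notochord and 51.0 and 3.50 in MP, and neural tube markers to at most 13.2 (trunk notochord at E8.5). In such pooled libraries a smaller share of expressing cells and less RNA per cell cannot be told apart.

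Guidance genes together summed to 794 FPKM in NotoP at E8.5 and 676 at E9.5, to 834 and 1109 in trunk notochord, and to 378 and 486 in MP. In culture their sum was 501 in NMPdiff, 599 in NotoPdiff and 422 in MPdiff. The most abundant member was Slit2 in all 4 embryonic notochord libraries, Ephb4 in MP at E8.5 and in MPdiff, Epha4 in MP at E9.5, Epha1 in NMPdiff and Epha2 in NotoPdiff. Slit2 alone made up 15.0% and 20.8% of the summed guidance FPKM in NotoP and 21.0% and 35.9% in trunk notochord.

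**Figure D1:**
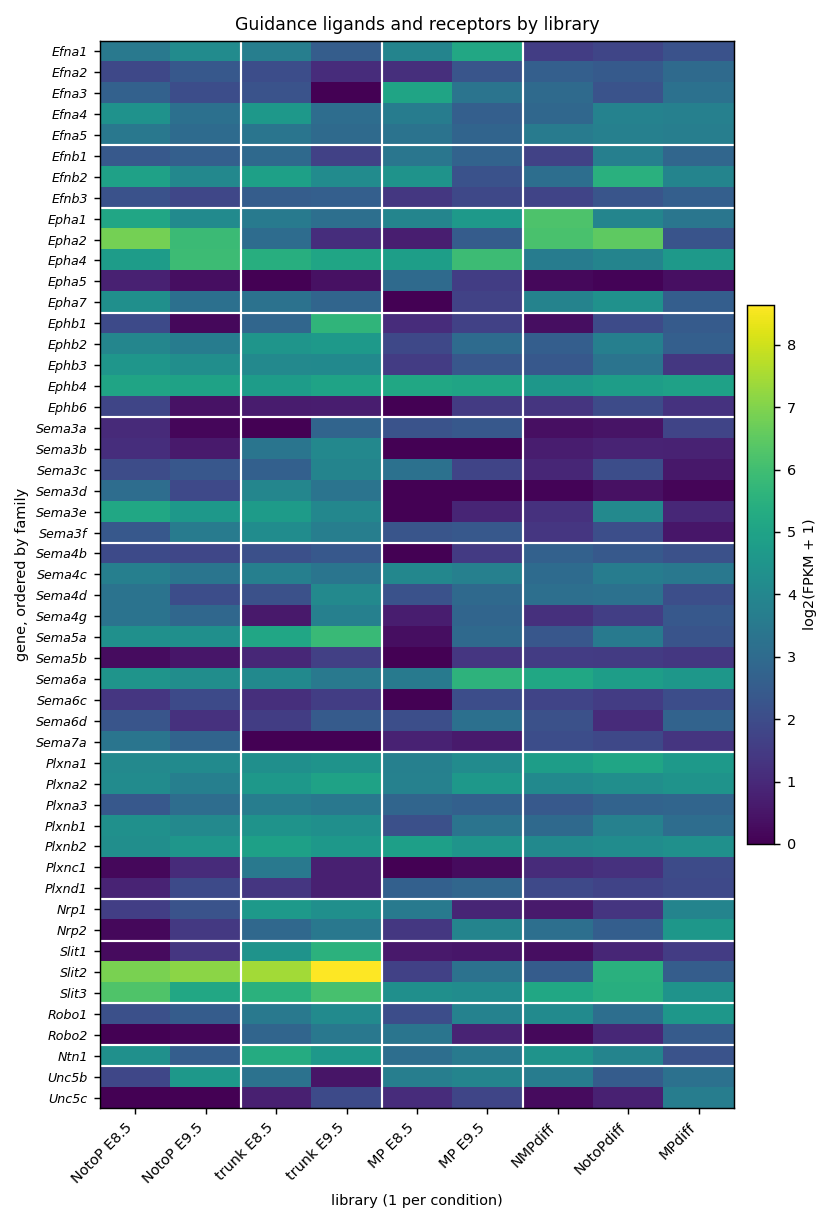
Heat map of log2(FPKM + 1) of the 51 guidance genes whose mean reached 1 FPKM (rows, ordered by family) in the 9 libraries (columns, 1 library each). Slit2 is the brightest row in NotoP and trunk notochord, Epha2 is bright in NotoP, NMPdiff and NotoPdiff only, and Ephb4 is nearly even across all columns.

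Differences are given as ratios after adding 1 FPKM to both values, and a member is called when the ratio reaches 3-fold, at both stages and in the same direction where 2 stages were sampled. In NotoP against MP, 6 of the 51 members (11.8%) were higher at both stages, namely Epha2, Ephb3, Sema3d, Sema3e, Sema7a and Slit2. This compares with 2.61% of all 11922 genes. No member was lower at both stages, where 0.478% of all genes were. The median log2 ratio of the members was 0.37 at E8.5 and 0.04 at E9.5, beside 0.10 and 0.02 for all genes. At E8.5 alone 14 members were higher and 6 lower (16.6% and 7.40% of all genes), and at E9.5, without the sparse E8.5 MP library, 7 were higher and 4 lower (4.84% and 2.00% of all genes). In the fit of population and stage no member passed an adjusted p of 0.05 (limma, Benjamini-Hochberg over 11922 genes), where 0.0252% of all genes were higher and 0.0% lower. Slit2 came nearest, with a log2 difference of 4.58 ± 0.39 (SE) and an adjusted p of 0.0727 from limma, followed by Sema3e with 4.44 ± 0.66 and 0.330. For Epha2, Ephb3, Sema7a and Sema3d the adjusted p from limma lay between 0.446 and 0.545. At an unadjusted p under 0.05 from limma 10 members were higher and 3 lower, against 5.45% and 2.68% of all genes. Just inside the limit was Sema3d, and just outside it was the receptor Epha7, at 18.7 and 8.06 FPKM in NotoP and at 0 and 2.25 in MP. Nearest to the lower limit was the ligand Efna3, at 5.39 and 3.15 FPKM in NotoP and 31.8 and 8.96 in MP.

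In culture, 7 members (13.7%) were at least 3-fold higher in NotoPdiff than in MPdiff (Efnb2, Epha2, Epha7, Ephb3, Ntn1, Sema3e and Slit2), against 2.82% of all genes. Lower in NotoPdiff were 4 (7.84%), the receptors Nrp1, Nrp2 and Unc5c and the membrane-bound cue Sema6d, against 0.78% of all genes. The members just inside and outside the limit were close to each other, with log2 ratios of 1.59 for Efnb2 and 1.58 for Sema3f on the higher side, and of -1.69 for Sema6d and -1.54 for Robo2 on the lower side. The medians were 0.06 for the members and 0.02 for all genes.

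Embryo and culture share no library, so their differences can be set side by side. Of the 6 members higher in embryonic NotoP, 4 (66.7%) were also at least 3-fold higher in NotoPdiff than in MPdiff and 6 of 6 were higher by some amount. Over all genes, 108 of 311 (34.7%) met the limit in culture and 279 were higher. Across the 51 members the mean embryonic log2 ratio and the cultured one had a Pearson r of 0.78 and a Spearman rho of 0.68, and across 11922 genes 0.45 and 0.38. These describe genes of the same libraries, which are not independent of each other, and whether the members differ from other genes was not tested. Sema3d and Sema7a were the pair that did not carry over, at 0.321 and 2.65 FPKM in NotoPdiff and 0.0867 and 1.53 in MPdiff.

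**Figure D2:**
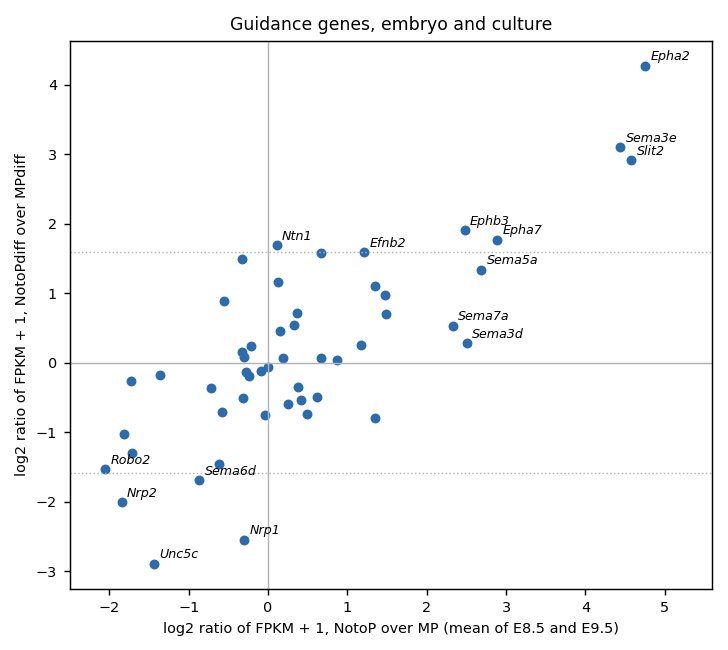
Log2 ratio of FPKM + 1 for each of the 51 guidance genes, NotoP over MP in the embryo (x axis, averaged over both stages) and NotoPdiff over MPdiff in culture (y axis), with dotted lines at 3-fold in culture. Epha2, Slit2 and Sema3e stand at the upper right, while Nrp1, Nrp2 and Unc5c lie lowest on the culture axis.

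Trunk notochord against NotoP uses the same NotoP libraries as NotoP against MP, so these differences are not independent of those above. Higher at both stages were 5 members (9.80%), the ligands Slit1 and Sema3b and the receptors Robo2, Nrp1 and Nrp2, against 1.66% of all genes. Slit1 and Sema3b reached the minimum mean only through the 2 trunk libraries, with at most 1.88 and 1.18 FPKM in any other. Without the minimum the same 5 of 69 were called, against 0.880% of all genes. Epha2 and Sema7a were lower (3.92%, against 1.97% of all genes), and both were also among the members called higher in NotoP than in MP. With the E8.5 stage alone 7 members were higher and 3 lower (7.37% and 7.39% of all genes), and with E9.5 alone 11 and 5 (7.08% and 9.71%). In the fit of population and stage no member passed an adjusted p of 0.05 from limma, where 0.0% of all genes were higher and 0.00839% lower. Of the 7 called members Slit1 and Sema7a had the lowest adjusted p from limma, both 0.375, with log2 differences of 4.18 ± 0.70 and -3.07 ± 0.56 (SE). At an unadjusted p under 0.05 from limma 7 members were higher and 2 lower, against 3.71% and 5.07% of all genes. The medians of the members were 0.24 (E8.5) and 0.28 (E9.5), beside 0.00 and -0.01 for all genes. Nearest to the limit were Nrp2 inside, with a smaller log2 ratio of 2.00, and Robo1 outside, with 1.36 at E8.5 and 1.64 at E9.5. Sox10, Ttr and, at E9.5, Pax1 were also found in trunk notochord and not in NotoP, and the mesoderm progenitor list (Tbx6, Msgn1, Pcdh8, Osr1 and Hes7) summed to 7.93 and 4.48 FPKM in trunk notochord against 142 and 97.2 in NotoP. The part of other cells in the trunk differences was not tested.

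**Figure D3:**
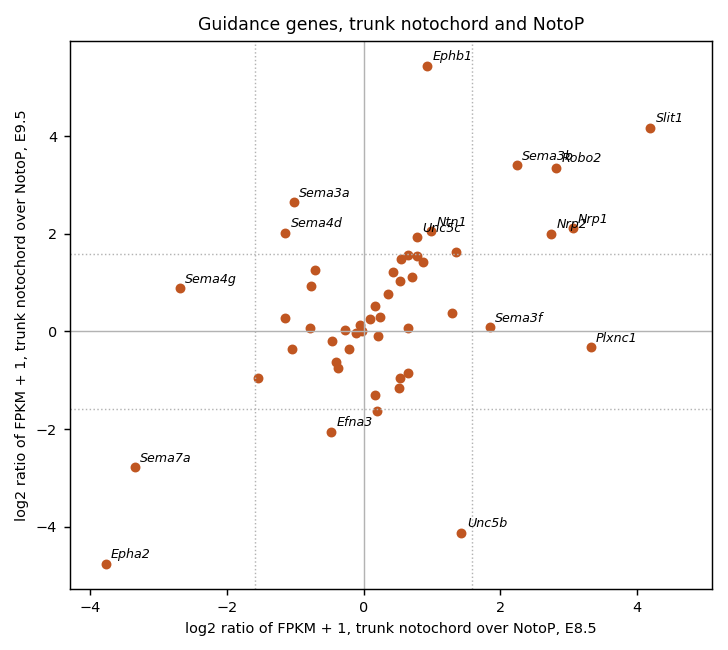
Log2 ratio of FPKM + 1 in trunk notochord over NotoP for each of the 51 guidance genes, with E8.5 on the x axis and E9.5 on the y axis, with dotted lines at 3-fold. Slit1, Robo2, Sema3b, Nrp1 and Nrp2 lie beyond both upper lines and Epha2 and Sema7a beyond both lower lines, while Ephb1 and Unc5b lie far from 0 at E9.5 alone.

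Slit2, a secreted repellent, was at 119 FPKM in NotoP at E8.5 and 141 at E9.5, at 175 and 398 in trunk notochord, and at 2.15 and 8.45 in MP. It was thus 38.1-fold and 15.0-fold higher in NotoP than in MP, and trunk notochord exceeded NotoP 1.47-fold and 2.82-fold, short of the limit. In culture it was at 43.4 FPKM in NotoPdiff, 4.74 in NMPdiff and 4.90 in MPdiff. All 5 notochord libraries were above all 4 others. Slit3, the related ligand, was at 76.4 and 35.4 FPKM in NotoP, 44.5 and 68.5 in trunk notochord and 18.7 and 17.5 in MP, and at 34.1, 41.5 and 20.5 in NMPdiff, NotoPdiff and MPdiff. It was the leading Slit in both MP libraries, NMPdiff and MPdiff. Slit1 was highest in trunk notochord, at 20.6 and 45.8 FPKM there and at 0.180 to 1.88 in the 7 other libraries, 18.3-fold above NotoP at E8.5 and to a like degree at E9.5.

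The Slit receptors were distributed otherwise. Robo1 was at 3.36 and 4.68 FPKM in NotoP, 10.2 and 16.6 in trunk notochord, 3.09 and 13.4 in MP, and 16.7, 7.67 and 22.8 in NMPdiff, NotoPdiff and MPdiff. Robo2 was listed at 0 in NotoP at E8.5 and was at 0.0800 at E9.5, with 6.01 and 10.0 FPKM in trunk notochord and 9.35 and 0.796 in MP. In culture Robo2 was highest in MPdiff (4.65 FPKM, against 0.147 in NMPdiff and 0.944 in NotoPdiff). The Robos thus summed to 3.36 and 4.76 FPKM in NotoP, where the 3 Slits summed to 196 and 178, and to 16.2 and 26.7 in trunk notochord, where the Slits summed to 240 and 512. FPKM is scaled by transcript length, but how well levels of different genes can be compared in these libraries was not tested. Robo3 and Robo4 did not exceed 0.825 FPKM in any library.

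**Figure D4:**
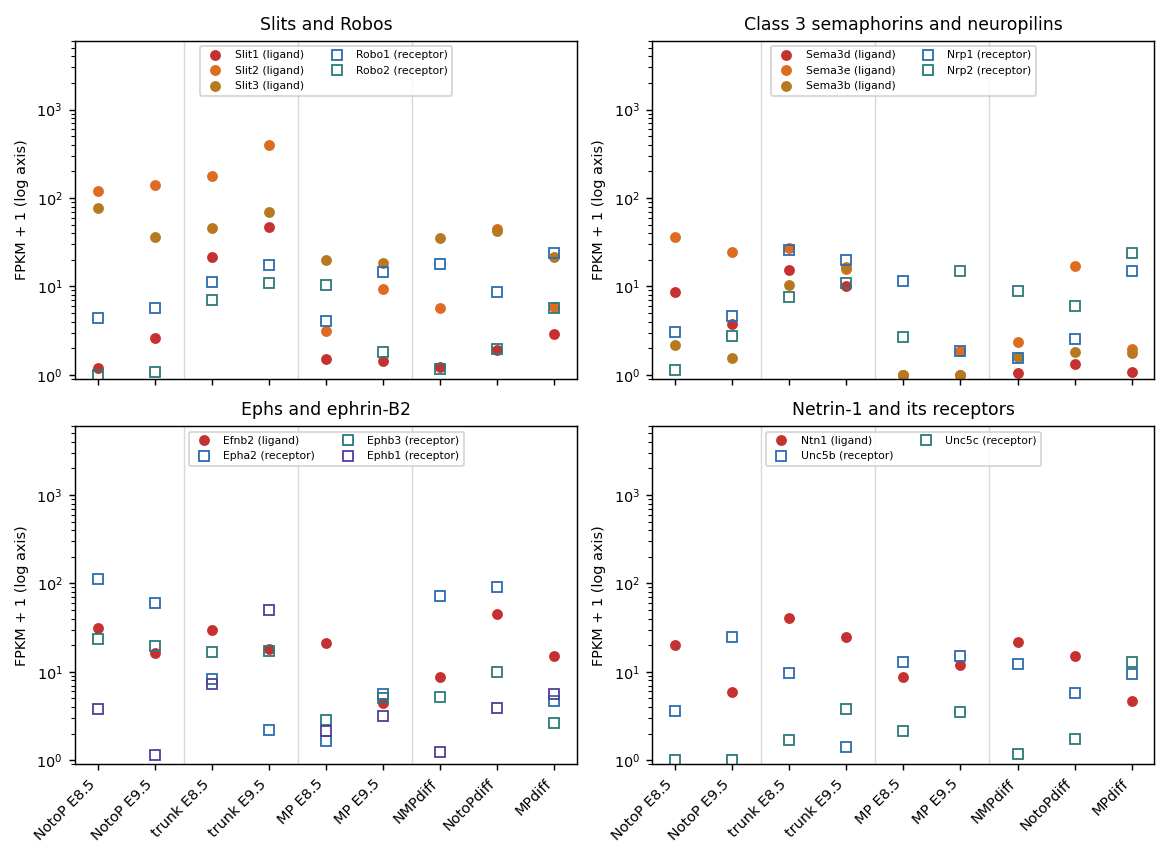
FPKM + 1 on a log axis of selected ligands (filled circles) and receptors (open squares) in each of the 9 libraries, for Slits and Robos, class 3 semaphorins and neuropilins, Ephs with ephrin-B2, and netrin-1 with Unc5b and Unc5c. Each symbol is 1 library. Slit2 and Slit3 lie above both Robos in NotoP and trunk notochord, and Nrp1 lies higher in trunk notochord (24.5 and 18.9 FPKM) than in NotoP (2.07 and 3.59).

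Where T and Foxa2 bound near these genes can be read from ChIP-seq peak lists of bulk cultures enriched for NotoPdiff, with 1 library per factor. T (brachyury) is a T-box factor and Foxa2 a forkhead factor, both needed for notochord formation. Slit2 (chr5:47981291-48307735 on mm10, plus strand) held 2 T and 4 Foxa2 peaks, of which one pair was shared, meaning that the T and the Foxa2 peak overlapped. The shared peak lay in an intron 22.7 kb downstream of the gene start, with a 17.1-fold enrichment for T and 14.4-fold for Foxa2. The strongest Foxa2 peak of Slit2, 19.8-fold, lay in an intron 293 kb downstream of the start without a T peak. Both are shown because Slit2 had the highest level of all guidance genes in the 4 embryonic notochord libraries. The windows reach 100 bases to each side of the summit, on the plus strand of GRCm38, chr5:48003873-48004073 for the shared peak and chr5:48274065-48274265 for the Foxa2 peak. Capitals mark exact matches, on either strand, to the T-box sequence AGGTGTGA or its core GTGTGA, which lies within it, and to the forkhead sequences TGTTTAC and TATTTAC.
Slit2 shared peak: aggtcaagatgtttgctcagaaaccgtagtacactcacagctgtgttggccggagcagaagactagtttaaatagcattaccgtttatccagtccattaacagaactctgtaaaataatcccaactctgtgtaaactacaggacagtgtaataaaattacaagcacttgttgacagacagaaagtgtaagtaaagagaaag
Slit2 Foxa2 peak: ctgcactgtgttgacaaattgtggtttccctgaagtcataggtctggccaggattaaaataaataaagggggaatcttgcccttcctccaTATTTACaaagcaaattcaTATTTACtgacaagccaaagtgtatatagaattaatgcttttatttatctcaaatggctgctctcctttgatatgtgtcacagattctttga
The shared window held none of these letters, and the Foxa2 window held TATTTAC at 2 places, starting 10 bases before and 9 bases after the summit. For comparison, TATTTAC occurred in 14.4% of all 22680 Foxa2 windows of this length and TGTTTAC in 13.8%, GTGTGA in 31.2% of all 6871 T windows and AGGTGTGA in 4.08%.

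Semaphorins repel or attract cells, and the secreted class 3 members bind neuropilins, except Sema3e, which binds plexin D1 directly. Sema3e was the leading class 3 semaphorin in NotoP, at 34.8 and 23.5 FPKM, and was at 26.0 and 14.9 in trunk notochord. MP listed it at 0 at E8.5 and at 0.866 at E9.5. NotoPdiff was at 15.8 FPKM, with 1.34 in NMPdiff and 0.969 in MPdiff, so that NotoPdiff exceeded MPdiff 8.55-fold. As for Slit2, every notochord library lay above every other library. Its receptor Plxnd1 was between 0.688 and 6.29 FPKM, with both MP libraries (5.26 and 6.29) the highest.

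Sema3d was at 7.52 and 2.77 FPKM in NotoP and 14.5 and 9.11 in trunk notochord, and listed at 0 in MP at both stages. It did not exceed 0.321 FPKM in culture, NotoPdiff included. Sema3b was at 9.28 and 15.4 FPKM in trunk notochord, at 1.18 and 0.543 in NotoP, at 0 in both MP libraries and at 0.600 to 0.807 in culture, with trunk notochord 4.72-fold and 10.6-fold above NotoP. Sema3c and Sema3f were found in most libraries, and neither was called in NotoP against MP. Class 3 semaphorins as a family summed to 51.7 and 42.1 FPKM in NotoP, 72.6 and 71.1 in trunk notochord, 15.8 and 11.8 in MP, and to 4.87, 24.0 and 5.26 in NMPdiff, NotoPdiff and MPdiff.

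Sema3e (chr5:14025276-14256689, plus strand) held 2 T and 5 Foxa2 peaks. One intronic pair was shared, 15.2 kb downstream of the gene start, with a 5.48-fold enrichment for T and 17.2-fold for Foxa2. Slit2 and Sema3e were the members higher in NotoP at both stages that had a shared peak, and its window around the T summit (chr5:14040340-14040540, plus strand) is shown beside that of Slit2.
Sema3e shared peak: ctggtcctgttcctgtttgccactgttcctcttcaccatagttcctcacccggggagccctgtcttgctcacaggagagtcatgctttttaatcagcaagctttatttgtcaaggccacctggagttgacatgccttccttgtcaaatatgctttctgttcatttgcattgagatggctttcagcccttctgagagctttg
No capitals appear in it, since none of the searched letters occurred. This says only that these letters are not in this window, and nothing about either factor. Sema3d held 3 T and 4 Foxa2 peaks, none of them shared, and Sema7a a single intronic Foxa2 peak of 15.1-fold.

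Neuropilins were low in NotoP. Nrp1 was at 2.07 and 3.59 FPKM in NotoP, 24.5 and 18.9 in trunk notochord and 10.5 and 0.850 in MP. Trunk notochord was 8.31-fold and 4.33-fold higher than NotoP. In culture Nrp1 was at 13.9 FPKM in MPdiff, 1.54 in NotoPdiff and 0.557 in NMPdiff. Nrp2 was at 0.141 and 1.72 FPKM in NotoP, 6.63 and 9.91 in trunk notochord and 1.66 and 14.1 in MP, and at 7.91, 4.96 and 23.1 in NMPdiff, NotoPdiff and MPdiff. MPdiff thus had the highest neuropilin sum of all libraries (37.0 FPKM) and NotoP at E8.5 the lowest (2.21). Both neuropilins are also known in endothelial cells. The endothelial marker Kdr was at 3.22 FPKM in MPdiff, and Pecam1, Cdh5 and Tie1 were at or under 0.0672 there. In trunk notochord Kdr was at 0.403 and 0, with Pecam1, Cdh5 and Tie1 listed at 0. The 2 other markers were found in trunk notochord and listed at 0 in NotoP, Tek at 0.937 FPKM at E8.5 and Emcn at 1.67 at E9.5, and the list summed to 1.34 and 1.67 FPKM in trunk notochord against 0.346 and 0.162 in NotoP. The part of endothelial cells in the neuropilin values was not tested.

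Both neuropilin genes held a shared T and Foxa2 peak, as did the netrin receptor gene Unc5c, and the windows of all 3, chosen after the values were seen, are shown as those of the receptors that were lower in NotoPdiff. In Nrp1 (chr8:128358591-128505476, plus strand), with 4 T and 8 Foxa2 peaks, the stronger shared peak lay in an intron 41.8 kb downstream of the start, at 11.1-fold for T and 6.26-fold for Foxa2 (chr8:128400283-128400483). In Nrp2 (chr1:62703317-62818692, plus strand), with 1 T and 3 Foxa2 peaks, it lay in an intron 64.2 kb downstream, at 8.26-fold for T and 12.0-fold for Foxa2 (chr1:62767381-62767581). In Unc5c (chr3:141465564-141834924, plus strand), with 2 T and 4 Foxa2 peaks, it lay in an intron 306 kb downstream, at 13.5-fold for T and 18.7-fold for Foxa2 (chr3:141771937-141772137). Capitals mark the same letters as for Slit2.
Nrp1 shared peak: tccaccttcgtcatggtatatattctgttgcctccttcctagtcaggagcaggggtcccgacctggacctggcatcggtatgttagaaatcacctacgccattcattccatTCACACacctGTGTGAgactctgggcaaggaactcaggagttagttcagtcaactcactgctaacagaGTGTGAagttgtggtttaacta
Nrp2 shared peak: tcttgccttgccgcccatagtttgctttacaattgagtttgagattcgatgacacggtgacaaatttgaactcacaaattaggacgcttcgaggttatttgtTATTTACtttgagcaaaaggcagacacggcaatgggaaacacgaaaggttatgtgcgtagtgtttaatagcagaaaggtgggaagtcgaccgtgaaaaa
Unc5c shared peak: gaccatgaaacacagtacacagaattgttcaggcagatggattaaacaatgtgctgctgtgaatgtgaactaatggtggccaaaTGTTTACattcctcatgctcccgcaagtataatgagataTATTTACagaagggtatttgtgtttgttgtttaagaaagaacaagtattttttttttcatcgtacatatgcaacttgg
The Nrp1 window held GTGTGA at 3 places, of which an inverted pair started 11 and 21 bases after the summit and another copy 79 bases after it. The Nrp2 window held TATTTAC starting 2 bases after the summit. The Unc5c window held TGTTTAC starting 16 bases before the summit and TATTTAC starting 23 bases after it. Among all 1388 shared windows around the T summit, 26.4% held GTGTGA, 18.2% TGTTTAC and 16.3% TATTTAC.

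Plexins, the signalling receptors for semaphorins, were even across libraries only in part. Plxna1 was between 12.6 and 33.1 FPKM over the 9 libraries, Plxna2 between 12.4 and 30.2, and Plxnb2 reached 29.3 and was lowest in NMPdiff. No plexin was called in NotoP against MP, in NotoPdiff against MPdiff or in trunk notochord against NotoP. Plxnb1 was at 19.3 and 15.6 FPKM in NotoP and 20.7 and 18.8 in trunk notochord, with 3.32 and 8.93 in MP, a 4.70-fold difference at E8.5 but 1.67-fold at E9.5. Plxna4 and Plxnb3 were below a mean of 1 FPKM.

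Among the semaphorins of classes 4 to 7, which are mostly membrane-bound, Sema7a was the 1 member called in NotoP against MP. It was at 9.21 and 5.90 FPKM in NotoP, at 0.792 and 0.559 in MP, and listed at 0 in both trunk libraries. In culture it was at 3.15, 2.65 and 1.53 FPKM in NMPdiff, NotoPdiff and MPdiff. Sema5a was the leading member of these classes in trunk notochord (33.6 and 56.7 FPKM) and was at 19.1 and 18.6 in NotoP, 0.240 and 6.68 in MP and 4.05, 10.9 and 3.72 in culture. It was 16.2-fold higher in NotoP than in MP at E8.5 and 2.56-fold at E9.5, so it was not called. Sema6d was at 5.80 FPKM in MPdiff, 1.10 in NotoPdiff and 3.45 in NMPdiff, but was not called in the embryo at both stages.

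Eph receptors and ephrins differed member by member. Epha2, an Eph receptor known in axial mesoderm and in pluripotent cells, was at 112 and 58.8 FPKM in NotoP, 0.660 and 4.65 in MP, and 7.27 and 1.21 in trunk notochord. It was 68.2-fold and 10.6-fold higher in NotoP than in MP, and its log2 ratio in trunk notochord over NotoP was -3.78 and -4.76. In culture it was at 70.2 FPKM in NMPdiff, 90.3 in NotoPdiff and 3.73 in MPdiff. Epha2 was thus high in the caudal NotoP, NMPdiff and NotoPdiff, and low in MP, MPdiff and trunk notochord, the last of which had the highest Slit2. Ephb3 was at 22.3 and 18.5 FPKM in NotoP, 15.9 and 16.1 in trunk notochord and 1.88 and 4.08 in MP, and at 4.21, 8.97 and 1.66 in NMPdiff, NotoPdiff and MPdiff. It was 8.09-fold and 3.83-fold higher in NotoP than in MP, and 3.75-fold higher in NotoPdiff than in MPdiff. Neither Epha2 nor Ephb3 had a T or Foxa2 peak within the gene or 5 kb of it.

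The other Eph receptors were shared between the populations only in part. Epha7 was at 18.7 and 8.06 FPKM in NotoP and 0 and 2.25 in MP. Ephb2 was at 14.8 and 11.3 in NotoP and 2.67 and 7.17 in MP, and Epha5 at 0.727 and 0.248 in NotoP and 7.00 and 1.94 in MP. Ephb1 was highest in trunk notochord at E9.5 (48.8). Ephb4, Epha4 and Epha1 were at 1 FPKM or more in all 9 libraries. Ephb4, a receptor for ephrin-B2, was the most even member named here, between 22.9 and 34.7 FPKM over the 9 libraries. Epha4 was at 26.2 and 59.5 FPKM in NotoP, 41.7 and 32.7 in trunk notochord and 27.9 and 59.1 in MP, and led the EphA receptors in MP, trunk notochord, MPdiff and NotoP at E9.5. Epha1 was at 74.0 FPKM in NMPdiff, above 14.2 in NotoPdiff and 9.42 in MPdiff, and between 7.99 and 33.4 in the embryo. Epha3, Epha6, Epha8 and Epha10 did not exceed 0.648 FPKM.

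Efnb2, the ligand of several EphB receptors and Epha4, led the ephrin-Bs in all libraries but MP at E9.5. It was at 30.1 and 15.5 FPKM in NotoP, 29.0 and 17.1 in trunk notochord and 20.4 and 3.49 in MP, and at 7.68, 43.9 and 13.9 in NMPdiff, NotoPdiff and MPdiff. NotoP exceeded MP 1.45-fold at E8.5 and 3.67-fold at E9.5. The 5 ephrin-As were each found, and none was called between NotoP and MP, NotoPdiff and MPdiff or trunk notochord and NotoP. Efna3 was at 31.8 FPKM in MP at E8.5 and between 0 and 8.96 in the other libraries.

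Of the netrins, Ntn1 alone reached a mean of 1 FPKM. Ntn1, a secreted cue, was at 19.2 and 4.94 FPKM in NotoP, 39.1 and 23.6 in trunk notochord and 7.69 and 10.9 in MP, so NotoP was above MP at E8.5 and below it at E9.5. In culture it was at 20.5 FPKM in NMPdiff, 14.0 in NotoPdiff and 3.64 in MPdiff. Ntn3, Ntn4 and Ntn5 did not exceed 2.09 FPKM. Dcc, the attractive netrin receptor, did not exceed 1.26 FPKM (MP at E8.5) and was listed at 0 in all 4 embryonic notochord libraries. Of the Unc5 receptors, which mediate repulsion, Unc5c was at 11.8 FPKM in MPdiff, 0.717 in NotoPdiff and 0.181 in NMPdiff, and listed at 0 in NotoP.

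Against NMPdiff, both cultured derivatives were compared with the same library, so their differences are not independent. Both derivatives were also sorted a day later in culture than NMPdiff, and the part of that day was not tested. In NotoPdiff, 5 members (9.80%) were at least 3-fold higher than in NMPdiff (Efnb1, Efnb2, Ephb1, Sema3e and Slit2), against 2.35% of all genes, and Epha1 was lower (1.96%, against 1.23%). In MPdiff, 4 (7.84%) were higher (Ephb1, Nrp1, Robo2 and Unc5c), against 1.72%, and 3 (5.88%) were lower (Epha1, Epha2 and Ntn1), against 2.55%. Efnb1, a membrane-bound ligand, was at 2.23 FPKM in NMPdiff, 12.4 in NotoPdiff and 6.22 in MPdiff.

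Between stages, few guidance genes of NotoP differed. Unc5b was at 2.57 FPKM at E8.5 and 23.5 at E9.5 (1.96% of members, against 4.12% of all genes), while Ntn1 and Ephb1 were lower at E9.5 (3.92%, against 3.28%). Ephb1 was at 2.83 FPKM and 0.142 in NotoP. In trunk notochord, 4 members (7.84%) were higher at E9.5, Ephb1, Sema3a, Sema4d and Sema4g, against 7.13% of all genes, and 4 (7.84%) were lower, Efna3, Epha2, Plxnc1 and Unc5b, against 9.82%. These shares were near those of all genes. Ephb1 was at 6.29 and 48.8 FPKM in trunk notochord at E8.5 and E9.5, while Unc5b was at 8.62 and 0.405. Sema3a was at 0 and 5.92, Sema4g at 0.511 and 12.7 and Plxnc1 at 10.3 and 0.675. Plxnc1 reached the minimum mean only through the E8.5 trunk library. The neural crest list (Sox10, Foxd3, Tfap2a and Ets1) summed to 8.39 FPKM in trunk notochord at E8.5, with 2 of 4 at 1 FPKM or more, and to 37.4 at E9.5, with 3 of 4, while Foxd3 was listed at 0 at both. The somite list summed to 39.1 and 27.5 FPKM, with Pax1 at 0 and 13.5. The part of such cells in the E9.5 trunk values was not tested.

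Over all members, 29 of 69 (42.0%) had a T peak in the gene or within 5 kb, against 14.1% of the 23838 genes that could be placed, 33 (47.8%) had a Foxa2 peak, against 28.5%, and 13 (18.8%) a shared one, against 3.18%. Guidance genes are long, with a median of 46.3 kb against 15.4 kb for all genes. Per megabase of gene and flanks they held 3.82 T peaks against 3.47, 11.4 Foxa2 peaks against 10.4 and 1.23 shared peaks against 0.657. The densities of T and of Foxa2 peaks were thus each slightly above those of all genes. No peak of either kind was found for 30 of the 69 members, and for 15710 of the 23838 placed genes. Among the 53 T peaks of members 48 were intronic, 3 upstream, 1 exonic and 1 downstream, and among the 158 Foxa2 peaks 146 were intronic. GTGTGA occurred in 34.0% of the members' T windows, beside 31.2% of all T windows, and one of the forkhead sequences in 20.9% of their Foxa2 windows, beside 26.2%.

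Shared peaks lay at members of both directions. The 13 members with a shared peak were Efna1, Efna5, Epha3, Epha4, Ephb6, Nrp1, Nrp2, Robo1, Sema3c, Sema3e, Sema6a, Slit2 and Unc5c. The shared peaks with the largest T enrichment were intronic peaks of Sema6a (20.0-fold for T and 13.2-fold for Foxa2), Sema3c (19.6-fold and 8.22-fold) and Slit2. Neither Sema6a nor Sema3c was called between NotoP and MP or between NotoPdiff and MPdiff. Of the 13, Slit2 and Sema3e were higher in NotoPdiff than in MPdiff, and Nrp1, Nrp2 and Unc5c were lower. Of the 7 members higher in NotoPdiff, Efnb2, Epha2 and Ephb3 had no peak of either factor, as had 15710 of all 23838 placed genes. Robo2, the longest gene shown here (1555 kb), held 5 T and 27 Foxa2 peaks without a shared one.

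**Figure D5:**
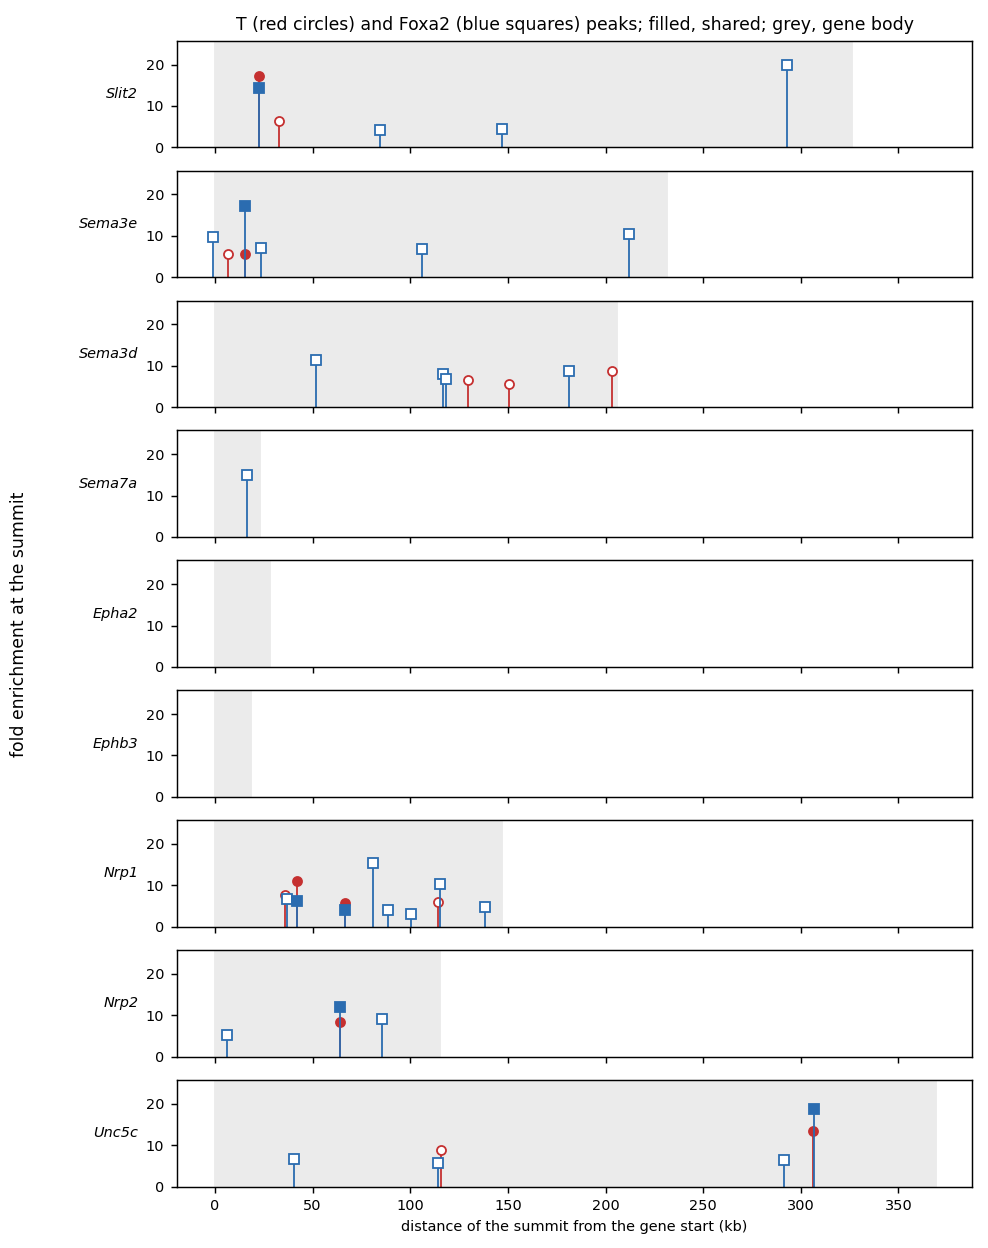
Fold enrichment at the summit of T peaks (red circles) and Foxa2 peaks (blue squares) by distance from the gene start in kb, for the 6 members higher in NotoP at both stages and for Nrp1, Nrp2 and Unc5c; filled symbols are shared peaks and grey is the gene body. Slit2, Sema3e, Nrp1, Nrp2 and Unc5c hold filled symbols, Sema3d and Sema7a hold open ones only, and Epha2 and Ephb3 hold none.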

How the data were processed

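Of the 21 samples, 9 RNA-seq and 2 ChIP-seq libraries were used, and ATAC-seq and histone samples were not used here. For RNA-seq, the authors aligned reads to mm10 with TopHat2 (2.1.1), removed duplicates by molecular identifiers and deposited FPKM values from Cufflinks (2.2.1). Counting intervals are not given, since FPKM files hold no counts. By the study's list of de-duplicated mapped reads, the embryonic libraries differed in depth, with E8.5 MP the shallowest, then both trunk notochord libraries; those totals were not used here, and depth of the cultured libraries is not given in the sources used here. Embryonic and cultured libraries were sequenced on different instruments, and ratios were formed within each. For ChIP-seq, the authors called peaks with MACS3 (3.0.0b1) on 1 library per factor. The deposited peak lists hold a fold enrichment (a ratio), −log10 p and q, and a score, which was not used.

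Ratios are log2((a + 1)/(b + 1)) in FPKM, called from 3-fold, over genes whose mean reached 1 FPKM. Gene positions, on GRCm38.p6, are RefSeq's, found for 23838 genes. A peak belonged to a gene when it lay in it or within 5 kb, and shared peaks overlapped by at least 1 bp. A limma (3.58.1, R 4.3.3) fit of log2(FPKM + 1) on population and stage over the 6 embryonic libraries, with a mean-variance trend and Benjamini-Hochberg adjustment over 11922 genes, was added after the data were seen. The calling rule and this fit were run on simulated data, which imitated no library of few cells. Those runs check the code and not the calls made here. The text names called members, the leading member of each family, the largest stage changes, members nearest the limit, and, of members higher in NotoP at both stages, the strongest shared peak. The members, marker lists and rules were chosen with earlier results of these data known, and any other gene or window was chosen after its values were seen. Alternatives changed the pseudocount, the minimum, the fold, the stages, the scaling, the q cutoff, the flanks and the overlap. Software was samtools 1.23.1, pysam 0.24.0 and, under Python 3.11.15, pandas 2.3.3, numpy 2.4.6 and matplotlib 3.10.9.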

Additional observations from a re-analysis of the deposited data

Results flagged for a closer look

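Ephb1 and Unc5b moved in opposite directions between stages in NotoP and in trunk notochord. The log2 ratio of E9.5 over E8.5 was -1.75 in NotoP and 2.77 in trunk notochord for Ephb1, and 2.78 in NotoP and -2.78 in trunk notochord for Unc5b. Each gene had a low value at E9.5, Ephb1 at 0.142 FPKM in NotoP and Unc5b at 0.405 in trunk notochord. After adding 5 FPKM instead of 1, those log2 ratios were -0.607 for Ephb1 in NotoP and -1.33 for Unc5b in trunk notochord, short of 3-fold. How many of all genes moved in this way was not counted. With 1 library per stage and population, the difference between the populations was not tested.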

How the results depend on the processing

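Counts of members called depended on the pseudocount, the minimum mean, the fold, the stages and the use of a test, and rescaling the libraries moved none by over 1.5 times. NotoP against MP (6 members) gave 13 with a pseudocount of 0.1 FPKM or a 2-fold limit, 3 with 5 FPKM, 11 at E9.5 alone without the E8.5 MP library and 20 at E8.5 alone. At 0.1 FPKM and at 2-fold these were 8 higher and 5 lower, against 5.73% and 1.25% of all genes at 0.1 FPKM and 6.50% and 1.86% at 2-fold, and with 5 FPKM all 3 were higher, against 0.696%. NotoPdiff against MPdiff (11) gave 3 with 5 FPKM, all higher (0.738% of all genes were), and 20 at 2-fold, 12 higher and 8 lower (7.33% and 2.54%), and trunk notochord against NotoP (7) gave 2 with 5 FPKM (0.369% of all genes higher and 0.478% lower), 4 with a mean of at least 5 FPKM (1.08% and 1.75%) and 16 at E9.5 alone. NotoPdiff against NMPdiff (6) gave 12 at 2-fold (8 higher and 4 lower, against 6.53% and 4.36%), and MPdiff against NMPdiff (7) gave 11 with 0.1 FPKM (3.37% and 4.83% of all genes higher and lower), 4 with 5 FPKM (0.528% and 0.772%) and 14 at 2-fold (3.94% and 6.12%). Between stages, NotoP (3) gave 9, 1 and 15 with 0.1 FPKM (8.64% and 6.36%), 5 FPKM (0.562% and 0.671%) and 2-fold (10.5% and 8.96%), and trunk notochord (8) gave 2 with 5 FPKM (1.95% and 2.32%), 5 with a mean of at least 5 FPKM (5.00% and 7.31%) and 15 at 2-fold (14.7% and 18.3%). A larger pseudocount shrinks every ratio by construction, and for the other shifts the cause was not tested. With 5 FPKM, 29 of the 48 calls of single members were lost, while Slit2, Sema3e and Epha2 kept theirs in NotoP against MP. Counts of members with peaks stayed within 1.5 times under every q cutoff, flank and overlap tried. The limma fit of population and stage, in which stage pairs the populations, called 0 members in NotoP against MP at an adjusted p under 0.05. It also called 0 in trunk notochord against NotoP. Its log2 difference is the mean of the 2 stage ratios, so the direction of the 13 calls could not change in it. The groups carry no replicate numbers to pair. Low FPKM values from libraries of few cells, E8.5 MP above all, limit every ratio near 0.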

Other observations

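Co-receptors and cytoplasmic partners of guidance signalling, a list of 40 genes of which 33 reached a mean of 1 FPKM, had no member called between NotoP and MP at both stages, where 2.61% of all genes were higher and 0.478% lower. In NotoPdiff against MPdiff 2 (6.06%, against 2.82% of all genes) were higher, Flrt3 (46.6 and 11.4 FPKM), a membrane protein that binds Unc5 and Robo receptors, and Ablim1 (8.65 and 1.29), an actin-binding protein. In trunk notochord against NotoP 2 (6.06%, against 1.66%) were higher at both stages. Ntng1, a membrane-anchored netrin relative, was at 22.6 and 34.9 FPKM in trunk notochord and 2.62 and 0.638 in NotoP. It reached the minimum mean only through those trunk libraries. L1cam, an adhesion molecule, was at 4.16 and 13.9 FPKM in trunk notochord and listed at 0 in NotoP. Rgma, a ligand of the Dcc relative neogenin, was higher than in NMPdiff (3.39 FPKM) in both NotoPdiff (35.7) and MPdiff (14.5), which share that library. Flrt3 was also higher and Crmp1 lower in NotoPdiff than in NMPdiff, and Ablim1 was lower in MPdiff. Against NMPdiff 2 were thus higher and 1 lower in NotoPdiff (6.06% and 3.03%, against 2.35% and 1.23% of all genes), and 1 each in MPdiff (3.03%, against 1.72% and 2.55%). Between stages, Farp2 was higher and Crmp1 lower at E9.5 in NotoP. In trunk notochord Flrt2, Crmp1 and Rras were lower. Vav3 was higher there, and it passed the minimum mean only through the E9.5 trunk library. Of the 33, 3.03% were thus higher and 3.03% lower in NotoP (4.12% and 3.28% of all genes), and 3.03% and 9.09% in trunk notochord (7.13% and 9.82%).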
